A study of Caenorhabditis elegans with 2 samples.

Results

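The peaks described here are the sites at tRNA genes where GFP-tagged ZTF-18, a zinc finger protein of Caenorhabditis elegans, was found by ChIP-seq. They are the nuclear peaks of the authors' thresholded list whose summit, the position of highest enrichment in a peak, lay inside a tRNA gene or within 150 bp of one, and whose pooled signal was below 720. This rule gave 395 of the 2449 nuclear peaks (16.1%, 95% interval 14.7 to 17.6), out of 2465 peaks in all. An interval printed after a share is its exact Clopper-Pearson 95% interval, which covers counting error only and takes the counted peaks or genes as independent. The peaks were chosen by measured values, namely their pooled signal and the distance of the summit, so both are given below as a description. The animals were hermaphrodite young adults of strain OP496, a transgenic line that carries ZTF-18 with a GFP-FLAG tag at its C terminus, harvested 64 hours after synchronization by starvation as L1 larvae. Chromatin of whole animals was fragmented by sonication and precipitated with an antibody to GFP in 2 biological replicates. There was 1 group and no comparison group, and a control experiment that the labels name was not analysed here, so the data hold values by replicate and by gene and no contrast between conditions. A whole-animal peak does not say in which tissue the protein was bound.

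tRNA genes are short genes read by RNA polymerase III, the enzyme that also makes 5S rRNA and several other small RNAs. Their promoter lies inside the gene, in an A box near the 5′ end and a B box further along, which the factor TFIIIC binds. TFIIIC brings in TFIIIB just upstream of the gene, the polymerase follows, and transcription ends at a run of T after the gene. Each tRNA carries the amino acid that names its isotype, and nematode genomes hold many tRNA genes of the same isotype, often letter for letter the same.

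The sequences of 8 tRNA genes under peaks and of 2 tRNA genes with no summit in any list show the internal promoter that lies under these peaks. The 8 are the gene at the strongest peak of each of the isotypes Lys, Arg, Leu, Ala, Asp, Val, Pro and Gln, and the 2 without a summit are of the isotypes Lys and Arg. Each was read from the reference genome WBcel235, which is ce11, and is printed 5′ to 3′ on the strand of the gene, from the first base of the gene to the end of the T run after it, with the A box, the B box and the T run in capitals.
T23F1.t1 (Lys, chrV:15465086-15465168, plus strand): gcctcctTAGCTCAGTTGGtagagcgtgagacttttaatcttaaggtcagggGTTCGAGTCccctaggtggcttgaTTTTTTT
C18A11.t2 (Arg, chrX:8036675-8036757, minus strand): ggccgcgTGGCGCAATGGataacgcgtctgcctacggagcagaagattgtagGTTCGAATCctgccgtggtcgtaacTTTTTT
ZK678.t1 (Leu, chrX:15742050-15742142, plus strand): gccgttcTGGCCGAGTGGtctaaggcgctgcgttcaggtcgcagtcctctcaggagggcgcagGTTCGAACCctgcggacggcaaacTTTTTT
Y7A9D.t2 (Ala, chrIV:16389200-16389282, minus strand): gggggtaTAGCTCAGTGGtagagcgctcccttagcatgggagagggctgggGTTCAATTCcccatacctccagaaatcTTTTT
Y54G2A.t3 (Asp, chrIV:2805627-2805708, plus strand): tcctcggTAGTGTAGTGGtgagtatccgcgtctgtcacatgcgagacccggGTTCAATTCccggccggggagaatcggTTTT
F35A5.t1 (Val, chrX:3793551-3793636, minus strand): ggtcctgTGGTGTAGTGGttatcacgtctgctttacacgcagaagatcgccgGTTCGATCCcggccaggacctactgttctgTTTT
F02H6.t1 (Pro, chrIV:14225102-14225183, plus strand): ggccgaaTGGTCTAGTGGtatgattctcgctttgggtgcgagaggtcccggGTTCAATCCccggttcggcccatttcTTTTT
F47E1.t1 (Gln, chrX:9078246-9078325, minus strand): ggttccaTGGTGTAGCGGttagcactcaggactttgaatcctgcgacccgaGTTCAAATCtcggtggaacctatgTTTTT
K01A12.t1 (Arg, no summit in any list, chrX:8623603-8623685, plus strand): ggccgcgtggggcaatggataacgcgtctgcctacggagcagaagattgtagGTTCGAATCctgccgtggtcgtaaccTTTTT
F37A4.t1 (Lys, no summit in any list, chrIII:6724126-6724220, minus strand): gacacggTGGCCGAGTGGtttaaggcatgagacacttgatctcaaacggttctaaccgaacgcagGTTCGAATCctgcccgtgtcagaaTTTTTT

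The B box was searched as GTTCNANNC on the strand of the gene, and the T run as TTTT in the 30 bp after it. The A box was searched by a looser form in the first part of the gene. A B box match was found in 587 of the 612 nuclear tRNA genes (95.9%), against 1.23% of 1392672 windows of 72 bp, the median length of a tRNA gene, searched in the same way on 1 strand. A T run followed 605 tRNA genes, and an A box match was found in 540. The match says only that these letters are there. F37A4.t1 is a Lys gene by its annotation, but it is 86 bp long against 73 bp for T23F1.t1. It stands 37 base changes from the closest Lys gene that exists in more than 1 copy.

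The thresholded list is made from both replicates and equals the 2465 strongest peaks of a longer pooled list of 30000 peaks. Longer lists of 26104 and 27612 peaks were deposited for replicate 1 and replicate 2, and these are called relaxed lists below. The signal of a peak is the authors' own value on a scale that is not stated, and the replicate lists have scales of their own, so levels are compared within a list. The pooled signal of the peaks at tRNA genes ran from 93.8 to 479 with a median of 168, and that of the 2053 other nuclear peaks from 93.6 to 11118 with a median of 150.

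The peaks at tRNA genes filled the middle of the list. Rank follows signal, so no peak above the limit of 720 can be among them. The limit left out only 1 summit at a tRNA gene, at rank 191. The shares by rank are given as a description. They were 24 of 247 nuclear peaks at ranks 251 to 500, 143 of 500 (28.6%) at ranks 501 to 1000, 124 of 500 (24.8%) at ranks 1001 to 1500, 66 of 500 at ranks 1501 to 2000 and 38 of 465 (8.17%) at ranks 2001 to 2465. The strongest of these peaks stood at rank 311. The median rank was 1096.

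The limits of the rule left out few peaks. The highest peak below the signal limit was that of F02H6.t1, a proline tRNA gene, at 479, and the next were those of Y69A2AR.t2, a glutamate tRNA gene, at 452 and of Y65A5A.t4, a histidine tRNA gene, at 422. A single summit near a tRNA gene lay above the limit, with a signal of 1179 at rank 191. It stood 129 bp upstream of C28G1.t1, a glutamate tRNA gene on X, and 32 bp upstream of the protein-coding gene C28G1.2. The same interval in the list (X, 8835684 to 8836315) held another entry with its summit 74 bp downstream of the first base of C28G1.t1 and a signal of 397, which is among the 395. The farthest summit within the distance was 145 bp from Y65A5A.t4 and the nearest outside was 167 bp from T03G6.t1. In all, 6 nuclear summits lay farther than that but within 500 bp of a tRNA gene.

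The summits sat on the tRNA genes themselves. Of the 395 summits, 250 (63.3%, 58.3 to 68.1) lay inside a tRNA gene, 372 (94.2%) inside or within 50 bp and 389 (98.5%) inside or within 100 bp. Along the strand of the gene, with its first base as 0, the median position was 14 bp (95% interval of the median 11 to 18, quartiles 1 and 47). The median first base of the A box match was at 7 and that of the B box match at 51. The median summit thus lay between the starts of both boxes, nearer to the A box. Upstream of the gene lay 93 summits (23.5%) and downstream 52 (13.2%). Of the genes printed above, F02H6.t1, F47E1.t1, ZK678.t1 and Y7A9D.t2 had the summit between 7 and 13 bp from the first base, and C18A11.t2 and Y54G2A.t3 had it past the end of the gene, at 107 and 106 bp.

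Each replicate alone gave nearly the same median, with a wider spread. The median was 13 bp in replicate 1 (10 to 19, n = 391 peaks with an overlapping peak) and 14 bp in replicate 2 (11 to 18, n = 394). Inside the gene lay 54.0% of the summits of replicate 1 and 55.6% of those of replicate 2. At tRNA genes with no other tRNA gene within 500 bp the medians were 14 bp in the pooled list (n = 314), 13 bp in replicate 1 and 14 bp in replicate 2. The summits of both replicates lay a median of 26 bp apart at tRNA genes and 24 bp apart at other nuclear peaks. The offset between replicates is larger than the median position itself, so the place of a single summit within a gene is less certain than the median over all peaks. The intervals were wide, with 263 of the 395 spanning 510 bp.

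**Figure D1:**
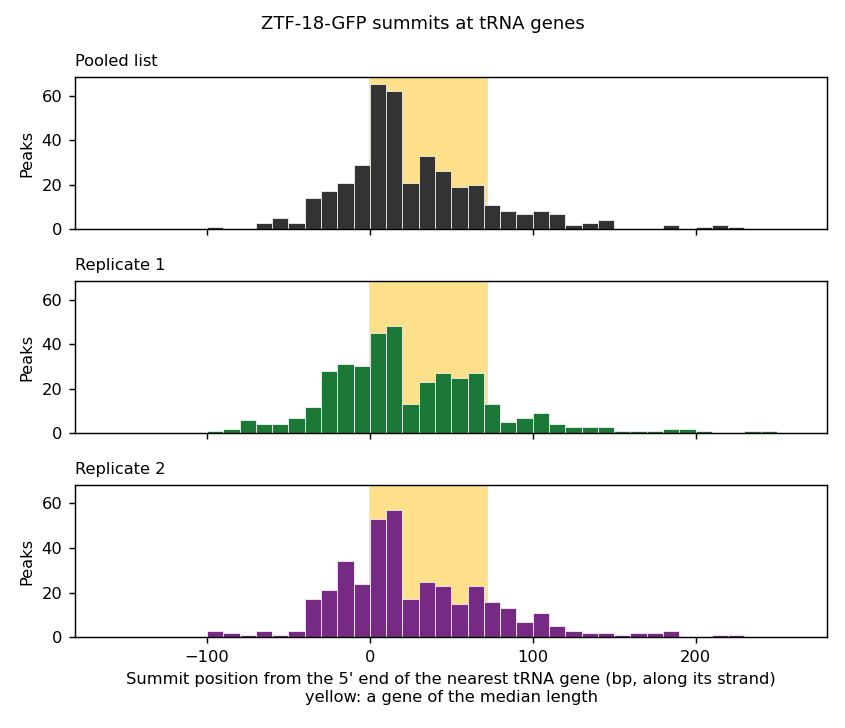
Number of peaks at tRNA genes (vertical axis) in bins of 10 bp by the position of the summit from the 5′ end of the nearest tRNA gene, along its strand (horizontal axis, bp), for the pooled list, replicate 1 and replicate 2. Yellow marks a gene of the median length, 72 bp, and the summits pile up in its first part in all 3 panels, with medians of 14, 13 and 14 bp. The replicate panels show, for each pooled peak, the overlapping replicate peak with the closest summit.

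A summit was found at most tRNA genes. Of the 612 nuclear tRNA genes, 415 (67.8%, 63.9 to 71.5) had one of these summits inside or within 150 bp. Among the 46278 nuclear genes of every other annotated class, 4.46% had a thresholded summit inside or within the same distance. By class this share ran from 0% of 20 rRNA genes to 28.6% of 346 snoRNA genes. The genes of that background differ from tRNA genes in length and number, and the peaks were chosen for lying at tRNA genes, so nothing is read from the gap. There are more genes than peaks because 31 summits had 2 tRNA genes within 150 bp. With each summit given to its nearest tRNA gene alone, 388 genes had one.

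Many of the other 197 tRNA genes had weaker peaks. In the pooled relaxed list 114 of them had a summit within 150 bp, with signals from 17.9 to 93.4 and a median of 64.2, below the 93.8 at which the weakest of the 395 stands. The median of all 30000 pooled relaxed peaks was 29.9. Replicate 1 and replicate 2 each had a relaxed summit at 116 of the 197. No summit in any of the lists lay at 54 of the 612 tRNA genes. An interval of a thresholded peak reached over 4 of these 54 without placing its summit there.

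All 20 standard isotypes were represented. The share of genes with a summit was highest for Asp, with 24 of 27 genes (88.9%, 70.8 to 97.6), and Lys, with 39 of 46 (84.8%, 71.1 to 93.7). Glu followed with 33 of 41 (80.5%) and Ala with 27 of 34 (79.4%). The shares were lowest for Pro, with 21 of 42 (34.2% to 65.8%), His, with 10 of 20 (27.2% to 72.8%), Tyr, with 10 of 19 (52.6%), and Ile, with 16 of 29 (55.2%). The intervals of Asp and Lys lay above that of Pro, while isotypes next to each other in this order had overlapping intervals. These isotypes were picked as extremes after ranking, and identical genes and shared summits are not independent. A difference between isotypes was therefore not tested. The remaining shares were between 60.0% (Asn, 12 of 20) and 76.9% (Cys, 10 of 13). The single selenocysteine tRNA gene had no thresholded summit, and its pooled relaxed signal was 86.9. None of the 5 tRNA genes for which the annotation gives no isotype had a thresholded summit.

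By number of peaks, Lys came first with 39, followed by Glu with 31, Arg and Gly with 30 each and Leu with 27. The median pooled signal of genes with a summit lay between 139 for Phe and 205 for Cys, within the quartiles of all 395 peaks, 133 and 208.

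**Figure D2:**
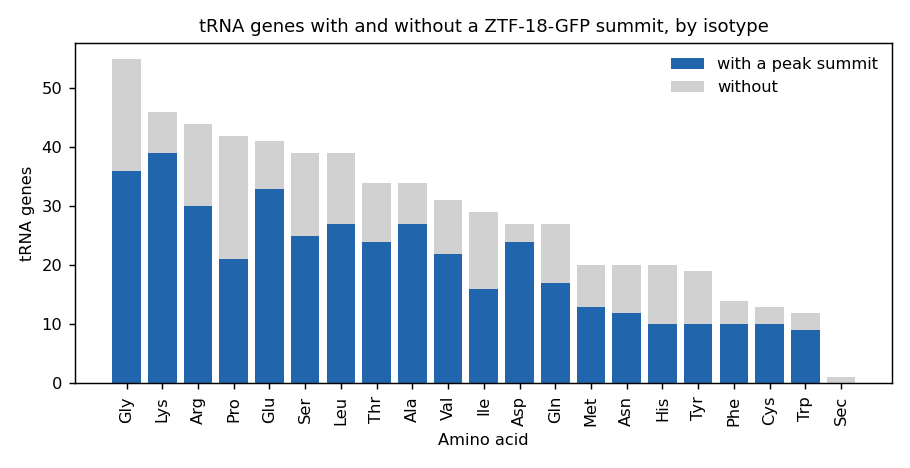
Number of nuclear tRNA genes (vertical axis) by isotype (horizontal axis), split into genes with (blue) and without (grey) one of the 395 summits inside or within 150 bp. The grey part is smallest relative to the bar for Asp (3 of 27 genes without) and Lys, and it equals the blue part for Pro and His.

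The strongest peak of each isotype shows the range of levels. At F02H6.t1 (Pro, IV, 14225102 to 14225173, between genes) the signal was 479 in the pooled list, 255 in replicate 1 and 230 in replicate 2, with ranks of 311, 367 and 302. At Y69A2AR.t2 (Glu, IV), whose summit fell in an exon of a protein-coding gene, the values were 452, 243 and 211. At T23F1.t1 (Lys, V), where 1 summit lies within 150 bp of this gene and of T23F1.t2, they were 421, 239 and 196. These 3 sites lay near the top of the range in the pooled list and in each replicate.

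Lower in the order, C18A11.t2 (Arg, X), the second gene printed above, had 298 in the pooled list, 140 in replicate 1 and 162 in replicate 2. F47E1.t1 (Gln, X) had 222, 101 and 118. The lowest of the isotype maxima was 215, at T28B4.t1 (Phe, X, in an intron of fbxl-4), with 113 in replicate 1 and 104 in replicate 2. Within each list, T28B4.t1 stood below C18A11.t2.

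The 3 weakest peaks were at Y92H12A.t1 (Arg, in an intron of src-1), with 93.8 in the pooled list, 43.5 in replicate 1 and 49.5 in replicate 2, at C39D10.t2 (Glu, X), with 94.1, 28.3 and 53.2, and at F52E10.t3 (Glu, X), with 94.7, 48.5 and 46.8. In replicate 1 all 3 ranked below its 2465 strongest peaks, at 3865, 7953 and 3264. In replicate 2 they stood inside, at 2117, 1885 and 2294.

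tRNA genes with identical copies had a summit more often than genes of unique sequence. Of the 317 genes in the 20 families of 10 or more identical genes, 240 had a summit (75.7%, 70.6 to 80.3). Of the 152 genes with fewer identical copies, 107 had one (70.4%, 62.5 to 77.5), and of the 143 genes with no identical copy, 68 (47.6%, 39.1 to 56.1). The intervals of unique genes and of both classes with copies did not overlap, but they take identical genes as independent. How reads that match several identical genes were placed is not given in the sources used here, and its part in these shares was not tested.

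The families were not alike. All 25 genes of the largest Lys family and all 10 genes of an Arg family on X, that of C18A11.t2, had a summit, and so had 20 of 21 identical Asp genes and 18 of 20 Glu genes. In a family of 24 identical Pro genes, that of F02H6.t1, 12 had one, and in a family of 11 identical His genes 5. Identical genes also differed in signal. Within the Pro family the pooled relaxed signal ran from 63.2 to 479 over 21 genes, with 3 genes in no list, and within the Arg family from 116 to 298 over 10 genes. Each gene was given the highest summit within 150 bp, so these counts and signals include summits shared by neighbouring genes. For example, T23F1.t2 of the Pro family and the Lys gene T23F1.t1 share a summit of 421.

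**Figure D3:**
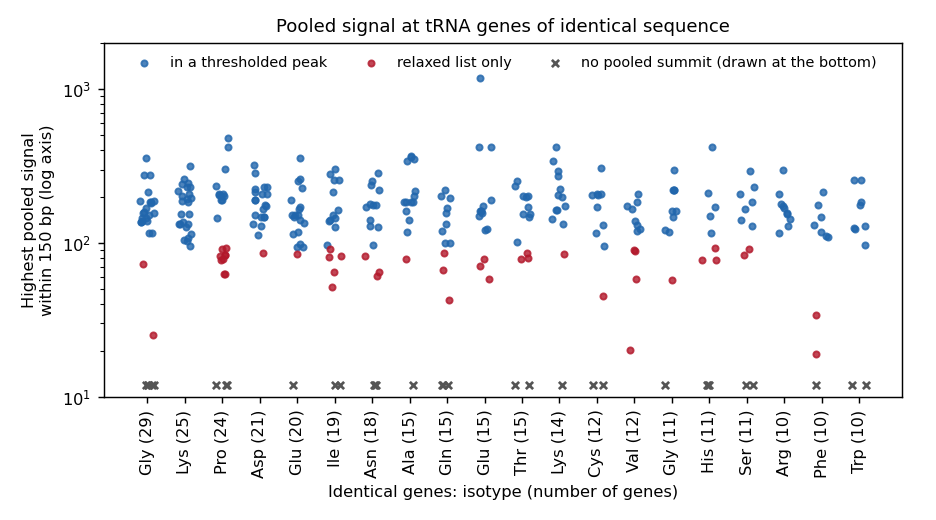
Highest pooled signal within 150 bp of each tRNA gene (vertical axis, log scale) in the 20 families of 10 or more identical genes (horizontal axis, isotype and number of genes). Blue genes have a thresholded summit, red genes a summit in the pooled relaxed list only, and crosses at the bottom stand for genes with no pooled summit. Every family spreads over a range of signals, the Lys family of 25 and the Arg family of 10 are all blue, and the point at 1179 in a Glu family is the summit near C28G1.t1 that lies above the signal limit.

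The tryptophan genes include the suppressor loci that worm geneticists isolated as altered tRNAs reading a stop codon. Of the 12 Trp genes, 10 are identical, among them every sup gene named here, so the limit on read placement holds for their signals too. Pooled signals were 256 at sup-5 (in an intron of fli-1), 255 at sup-24, 185 at sup-7, 130 at sup-28 and 96.3 at sup-33. In replicate 1 the values in this order were 140, 144, 108, 63.3 and 58.7, and in replicate 2 they were 115, 113, 79.1, 64.1 and 35.4. Of these 5 genes, sup-5 and sup-24 were the highest and sup-33 the lowest in each replicate. The genes sup-21 and sup-29 had no pooled summit, and their relaxed signals were 67.1 and 23.4 in replicate 1 and 23.8 and 11.6 in replicate 2. The pair sup-28 and sup-33 lies in introns of the same host gene, trk-1.

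Genes of unique sequence were compared with their closest relative that exists in more than 1 copy. A unique gene with 1 to 3 base changes from such a gene of its isotype had a summit in 47 of 81 cases (58.0%, 46.5 to 68.9), one with 4 to 10 changes in 11 of 29 (37.9%, 20.7 to 57.7), and one with over 10 changes in 10 of 27 (37.0%, 19.4 to 57.6). These intervals overlap. Among the 45 unique genes that differ from a copied gene by a single substitution, 23 had a summit. Of the substitutions in the A box, 4 of 10 went with a summit, a count too small to read from. The other substitutions are not split by box here, because the B box was not placed at the printed form in every gene.

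The Arg gene K01A12.t1 is 1 of 7 such genes in no list. It differs from C18A11.t2 and the other identical Arg genes by C11G, counted from 1 at the first base, where the second letter is that of K01A12.t1. The change lies in the A box, and with it the A box form no longer matched. All 10 genes of the family had a summit, among them K01A12.t3 in the same host gene K01A12.3. Its summit, shared with the Cys gene K01A12.t2, had 116 in the pooled list, 60.3 in replicate 1 and 59.2 in replicate 2. K01A12.t1 lies 89 bp from K01A12.t5, a Cys gene with identical copies that was also in no list, and no thresholded interval reached K01A12.t1. Another of the 7, the Thr gene F11A5.t1 (V), carries T46C outside both boxes and lies 119140 bp from the next tRNA gene, while all 3 genes that it differs from had a summit.

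The B box form was found in most tRNA genes, with a summit or without one. It was found in 404 of the 415 genes with a summit (97.3%, 95.3 to 98.7) and in 183 of the 197 others (92.9%, 88.4 to 96.1). A T run followed 414 of the 415 and 191 of the 197. Of the 25 genes with no exact B box match, 11 had a summit (44.0%, 24.4 to 65.1), against 404 of the 587 with a match (68.8%, 64.9 to 72.6), and the intervals overlap by less than 1 percentage point. With 1 letter changed, 611 of all 612 tRNA genes matched. Among the 11 were 6 of 9 identical Met genes, 3 Pro genes, a Lys gene and the Glu gene Y69A2AR.t2, the site of second highest signal. Counted from the summit, a B box match on either strand lay within 100 bp of 366 of the 395 summits (92.7%) and of 157 of the 2053 other nuclear summits (7.65%). This difference follows from the choice of peaks at tRNA genes.

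**Figure D4:**
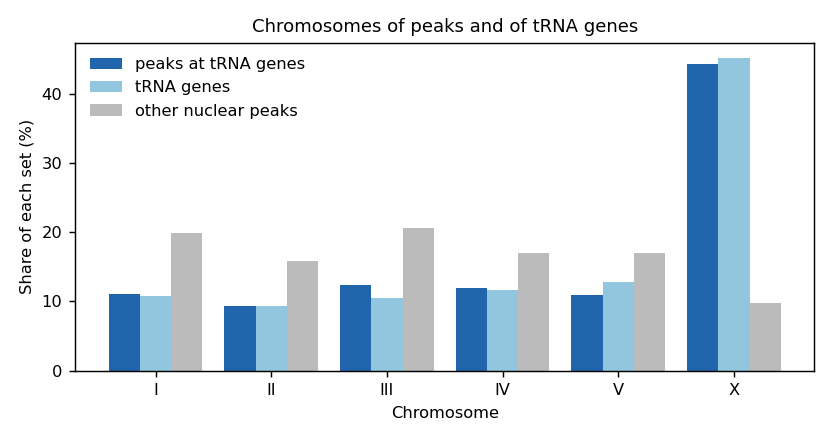
Share of each set in percent (vertical axis) on each chromosome (horizontal axis) for the 395 peaks at tRNA genes, the 612 nuclear tRNA genes and the 2053 other nuclear peaks. On X the first 2 sets stand at 44.3% and 45.1% and the other peaks at 9.74%.

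The peaks were spread over the chromosomes as the tRNA genes are. The X chromosome held 175 of them (44.3%, 39.3 to 49.4) and 276 of the 612 tRNA genes (45.1%), but 200 of the 2053 other nuclear peaks (9.74%, 8.49 to 11.1). Since the peaks were chosen at tRNA genes, this likeness and the gap to other peaks follow largely from the choice. On X, 189 of 276 tRNA genes had a summit (68.5%, 62.6 to 73.9), and on the autosomes 226 of 336 (67.3%, 62.0 to 72.3), so the intervals overlap. Peaks at tRNA genes made up 175 of the 376 nuclear thresholded peaks on X (46.5%, 41.4 to 51.7) and 220 of the 2073 on autosomes (10.6%). Between autosomes, the share of tRNA genes with a summit was highest on III, with 51 of 64 (79.7%, 67.8 to 88.7), and lowest on V, with 44 of 78 (56.4%, 44.7 to 67.6). The median pooled signal of the peaks was between 155 on II and 188 on IV.

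In each replicate the median signal was highest on IV. The median signal of the peaks on X was 90.3 in replicate 1 and 81.6 in replicate 2, that on IV 94.3 and 91.8, and that on II 85.4 and 70.6. A top peak of both replicates lay at 154 of the 175 peaks on X (88.0%) and at between 83.7% (III) and 91.5% (IV) of those on an autosome.

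Introns held many of these peaks. The summit lay in an intron of a protein-coding gene at 189 of the 395 peaks (47.8%, 42.8 to 52.9), in an exon at 7 and between genes at 199 (50.4%, 45.3 to 55.4). Of the other nuclear peaks 19.3% (17.6 to 21.1) lay in an intron, 15.8% in an exon and 64.9% between genes. The tRNA genes themselves lay in introns in 284 of 612 cases (46.4%). The peaks were chosen for lying at tRNA genes, so this likeness and the gap to other nuclear peaks follow largely from the choice. Intronic tRNA genes on the strand of their host had a summit in 113 of 161 cases (70.2%, 62.5 to 77.1), and those on the opposite strand in 85 of 122 (69.7%, 60.7 to 77.7). The median pooled signal was 163 in introns and 174 between genes, with quartiles of 133 to 204 and 134 to 220, which overlap.

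The peaks lay in 162 host genes, and 4 hosts carried 3 each. In pxn-1 (V), a peroxidasin gene, the peaks at ZK994.t1, ZK994.t3 and ZK994.t2 had pooled signals of 164, 148 and 205. In srv-16 (IV), a gene of the chemoreceptor-like srv family, the 3 peaks had signals from 151 to 419, with 321 at Y105C5B.t1 (Asp) 419 at the summit shared by Y105C5B.t2 and Y105C5B.t3 (Glu) and 151 at a weaker summit 109 bp from Y105C5B.t2. In tbc-12 (X) the signals ran from 146 to 198, and in unc-58 (X), a potassium channel gene, from 130 to 155. The neighbouring summits at T06H11.t2 and T06H11.t3 in unc-58 were overlapped by 1 and the same peak of replicate 1, with a signal of 102, so their replicate 1 values are not separate measurements. In each of the 4 hosts, every tRNA gene inside the host had a summit.

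These summits stood farther from the starts of protein-coding genes than the summits of other nuclear peaks. The median distance to the nearest annotated 5′ end was 1758 bp (quartiles 726.5 and 3406) against 367 bp (157 and 1278) for other nuclear peaks. From 1000 bp upstream to 200 bp downstream of that end lay 77 of the 395 (19.5%, 15.7 to 23.8) and 1262 of the 2053 others (61.5%, 59.3 to 63.6). The peaks were chosen for lying at tRNA genes, and the same values for all tRNA genes are not given. Nothing about the protein is therefore read from this gap.

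Both replicates placed a strong peak at most of these sites. One of the 2465 strongest peaks of replicate 1 and one of replicate 2 overlapped 345 of the 395 (87.3%, 83.7 to 90.5), where 76.9% of all nuclear thresholded peaks had both. The share was 74.9% (72.9 to 76.7) of the 2053 other nuclear peaks, and 70.8% (68.7 to 73.0) of the 1756 of them whose pooled signal lay in the same range as that of the peaks at tRNA genes. Since both replicates feed the pooled list, a high share is built in. Within the shared range, the median pooled signal was 168 at tRNA genes and 138 at the others, and the part of this difference in the shares was not tested.

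The 50 peaks at tRNA genes that missed a top peak of one replicate or both were among the weaker ones, with a median pooled signal of 113 against 177 for the 345. Of these 50, 39 had a top peak in replicate 2 alone, 8 in replicate 1 alone and 3 in neither. The peaks at tRNA genes stood higher in the ranking of replicate 2, with a median rank of 1064 (n = 394) against 1333 in replicate 1 (n = 391). Other nuclear peaks had median ranks of 1336 in replicate 2 and 1286 in replicate 1. The ratio of replicate 1 to replicate 2 signal had a median of 1.15 at tRNA genes (quartiles 0.966 and 1.33, n = 390), 1.32 at other nuclear peaks of the same signal range (1.06 and 1.69, n = 1751) and 1.36 at all other nuclear peaks. The quartiles overlap. By isotype the median ratio ran from 0.870 for Phe (10 peaks) to 1.37 for Ile (16 peaks), and it was 1.16 in introns and 1.15 between genes.

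Across the 390 peaks at tRNA genes with a peak in each replicate, the signals of the replicates had a Spearman rho of 0.687, and across the 1751 others of the same signal range it was 0.564. These values describe peaks of the same pair of libraries and are not evidence from independent samples. Taken alone, the 2465 strongest peaks of replicate 1 held 375 nuclear summits at tRNA genes (15.3%, 13.9 to 16.8) and those of replicate 2 held 406 (16.6%, 15.1 to 18.1). They marked 386 tRNA genes in replicate 1 and 425 in replicate 2, with 355 genes in both, 31 in replicate 1 alone, 70 in replicate 2 alone and 156 in neither.

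**Figure D5:**
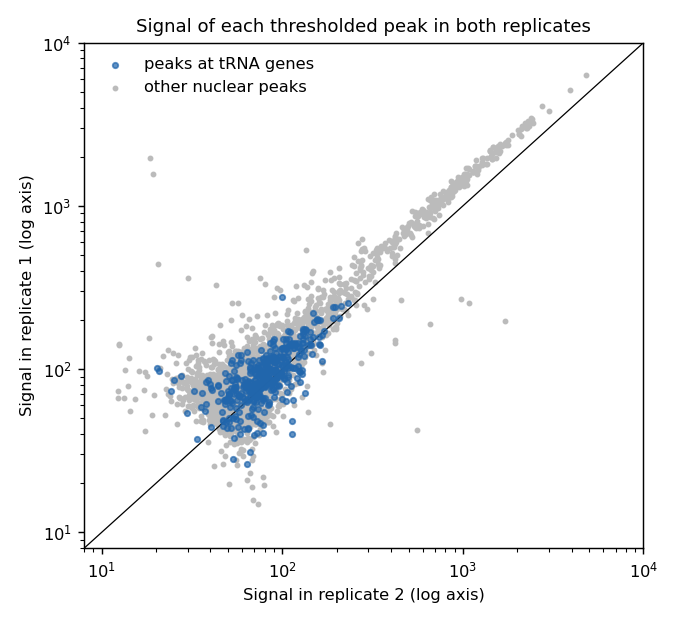
Signal of each nuclear thresholded peak in replicate 1 (vertical axis, log scale) and replicate 2 (horizontal axis, log scale), for peaks at tRNA genes (blue) and other nuclear peaks (grey), with a line where both are equal. The blue points reach at most 276 in replicate 1 and 230 in replicate 2, and their median ratio is 1.15 against 1.36 for the grey ones, with overlapping quartiles. The replicate lists have scales of their own, so the line is only a guide.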

How the data were processed

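ChIP-seq of ZTF-18-GFP was measured in 2 replicates of 1 group. The deposited peak lists in ce11 give, per peak, the authors' signal value and a −log10 q-value, and derive from the alignments and a control alignment, per the README deposited with them. The caller, the aligner, the scale of the signal and the placement of reads that match several genes were not given in the sources used here, and the read depth is unknown. The thresholded list derives from both replicate lists and the pooled list, per the same README. Summits were matched to tRNA genes of WBcel235 (Ensembl release 115, isotypes from RefSeq products for 607 of 612 genes) within 150 bp, with a signal limit of 720. A replicate supported a peak where one of its 2465 strongest peaks overlapped it by any length. No test between groups was run. The named genes are the strongest peak of each isotype, the 3 highest and 3 lowest peaks, the peaks with most tRNA genes, those at the limits of the rule and the host genes with 3 or more peaks. The Trp genes, the single-substitution genes and other genes singled out were chosen after their values were seen. The members and lists were chosen with earlier results of these data known. The steps were tested on simulated data. Python 3.11.15, numpy 2.4.6, pandas 2.3.3, scipy 1.17.1 and matplotlib 3.10.9 were used. The ce10 lists and the control were not used here.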

Additional observations from a re-analysis of the deposited data

How the results depend on the processing

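Of 60 values of 7 results under other settings, 54 stayed within the set tolerance. The tolerance was the interval of the reported value for shares and the median, and a fixed ratio for counts. Some settings could hardly move a value. A signal limit of 500 left all 395 peaks, no limit gave 396, and 1 entry per repeated interval gave 394. Only the median summit position could turn in direction, and it did not. In the upper part of the thresholded list by signal, 237 peaks and 257 tRNA genes were left, by construction, and 99.2% of these peaks had a top peak of both replicates. Where the top peak of each replicate had to have its summit within 100 bp of the pooled summit, this share was 82.8%. With 1 mismatch allowed, 100% of the tRNA genes with a summit held the B box form, as did 611 of all 612 tRNA genes. With the list of a single replicate, the share with a top peak of both replicates ran from 86.0% to 94.4%, a value that counts the retained replicate itself, and 375 to 406 peaks lay at 386 to 425 tRNA genes. The read depth is unknown, and the tRNA genes with identical copies cannot be told apart by reads that lie inside them. No paired analysis was possible because there is 1 group.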

Other observations

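Other genes of RNA polymerase III were looked up with the same distance. The SRP RNA is the RNA of the particle that directs proteins to the endoplasmic reticulum, and 4 of its 5 genes had a thresholded summit. The highest was that of srpr-2.2 (III), with 440 in the pooled list, 264 in replicate 1 and 185 in replicate 2. The fifth, srpr-3, had a relaxed signal of 78.4. The gene rpr-1, which makes the RNA of the tRNA-processing enzyme RNase P, had 416, 226 and 188, and the Y RNA gene yrn-1 had 109, 42.2 and 62.8. None of the 16 annotated 5S rRNA genes had a thresholded summit, which allows a share of up to 20.6% (upper bound of the exact interval), and 1 had a relaxed one with a signal of 44.7. How reads that match several genes were placed is not given, and its part in this count was not tested.

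Annotated tRNA pseudogenes, degenerate copies that are outside the 395, had a thresholded summit in 10 of 209 cases (4.78%, 2.32 to 8.62). The share was 4.46% of all nuclear genes other than tRNA genes, and 1.36% (0.915 to 1.95) of the 2128 genes of the class pseudogene. A B box match on either strand was held by 166 of the 209 (79.4%). The highest was D1046.t1 (IV, 8927200 to 8927273), with 556 in the pooled list, 294 in replicate 1 and 259 in replicate 2, which is above each of the 395. None of the 10 lay within 300 bp of a tRNA gene.

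Of 11 genes for RNA polymerase III and its factors that were found in the annotation, 2 had a thresholded summit inside or within 150 bp, where 6.34% of all protein-coding genes had one, and nothing is read from so small a count. These were rpac-19, a gene for a subunit of RNA polymerases I and III, with a signal of 244, and tftc-1, a TFIIIC subunit gene, with 354 and a stronger summit of 1174 between 1000 bp upstream and 200 bp downstream of its 5′ end. The peaks at tRNA genes were also looked up near other classes of small RNA gene. There was 1 within the distance of an snRNA gene, 4 near a piRNA gene and none near a snoRNA or miRNA gene, where 0 of 395 allows a share of up to 0.930% (upper bound of the exact interval). The same count for other nuclear peaks is not given, so nothing is read from these. Counted by gene, any thresholded summit lay within the distance of 25.6% of snRNA, 28.6% of snoRNA, 4.2% of miRNA and 0.117% of piRNA genes.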
